A study of Mus musculus with 2 samples.

Results

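The cytosolic ribosomal protein genes were read in microglia sorted from mice given vehicle or corticosterone. Members were the genes whose symbol is Rpl or Rps followed by a number, with at most 1 further letter a, l, x or y, together with Rplp0, Rplp1, Rplp2 and Rpsa, and pseudogenes and the Rps6k kinases were left out. This gave 80 of the 32589 genes in the count tables, 49 of the large and 31 of the small subunit. Genes such as Fau, Rack1 and Rps3a1 also encode parts of the ribosome or a ribosome-bound protein but have other names, and they are given apart.

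The mice were C57BL/6, and 1 group was given corticosterone, the main glucocorticoid of rodents, by oral gavage to bring on a depression-like state, while the other was given vehicle. Cells were taken from prefrontal cortex and sorted as CD45low CD11b+, the usual gate for microglia, and 1 single-cell RNA library was sequenced per group. The number of animals in a library, their age and sex, and the dose and duration are not given in the sources used here. With 1 library per group there was no replicate check and no test, and the treatment cannot be told apart from the library or its preparation. Every interval below covers counting error only (95%), except that of a median over genes, which covers the spread over genes.

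The ribosome reads messenger RNA and builds protein. Its small subunit decodes the message and its large subunit joins the amino acids, and the proteins of both are made in matched amounts from some of the most heavily transcribed genes of the cell. Most of these messages begin with a run of pyrimidines, the 5' terminal oligopyrimidine (TOP) motif, through which the growth-control kinase mTOR sets how much they are translated, and they tend to be more abundant in growing and activated cells.

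After filtering, 10500 vehicle and 17883 corticosterone cells held 49325067 and 85103539 UMIs, a UMI (unique molecular identifier) standing for 1 captured RNA molecule. Clusters were named from marker genes, and 7906 vehicle and 15267 corticosterone cells were microglia-like, all 11 microglia markers being detected in both libraries. Their summed level, in CPM (UMIs scaled to the same total in each class and library), was 41131 with vehicle against 36678 with corticosterone (3 markers higher, 8 lower). Markers of other cells were present in microglia-like cells at summed levels, vehicle then corticosterone, of 900 and 690 CPM (neutrophil, 10 genes, none at 0), 85.6 and 38.8 CPM (border-associated macrophage, 9 genes, none at 0), 19.4 and 35.7 CPM (monocyte, 7 genes, none at 0) and 1.33 and 0.938 CPM (T cell, 8 genes, 5 and 3 at 0). Those of B cells were at 440 and 406 CPM (6 genes, 1 at 0 in each), of astrocytes at 207 and 92.9 CPM (7 genes, 1 and 0 at 0) and of oligodendrocytes at 100.2 and 123 CPM (7 genes, none at 0), and the remaining lists were at 59.5 CPM or less. The microglia-like cells of the libraries fell largely into different clusters: cluster 0 held 186 vehicle and 9114 corticosterone cells, cluster 1 held 7255 and 225, and cluster 2 held 362 and 5383. The median share of mitochondrial UMIs per microglia-like cell was 2.46% in vehicle and 4.10% in corticosterone, and the part of these differences in the results below was not tested. Of the barcodes, 104 occurred in both libraries, and none was removed for that.

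In microglia-like cells, ribosomal protein transcripts made up 4.49% of all UMIs in vehicle (95% exact interval 4.49 to 4.50%) and 5.31% in corticosterone (5.31 to 5.32%). The share was thus higher in corticosterone by 0.24 on the log2 scale. Both subunits contributed, large subunit transcripts going from 2.66% of UMIs in vehicle to 3.13% in corticosterone and small subunit transcripts from 1.83% to 2.18%. The ratio of large to small subunit UMIs was 1.45 in vehicle and 1.44 in corticosterone, a log2 difference of -0.02 (-0.02 to -0.01). Within the 3 largest clusters, which the libraries filled unequally, the log2 ratio of the share was smaller, 0.12 in cluster 0, 0.12 in cluster 1 and 0.15 in cluster 2. In the small cluster 5, led by interferon genes such as Ifnb1 and Ifit2, it was 0.23 (34 vehicle and 480 corticosterone cells). In cluster 10, led by Lpl and Spp1 and filled more evenly by the libraries (51 and 63 cells), it was 0.07 (0.04 to 0.10), with 44 of 77 genes higher against 47.4% of all genes.

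The same difference stood in single cells. The median microglia-like cell gave 4.30% of its UMIs to ribosomal protein genes in vehicle and 5.19% in corticosterone, and the middle 50% of cells lay between 3.68 and 4.96% in vehicle and between 4.49 and 5.99% in corticosterone. The ranges overlapped. Depth differed as well, the median microglia-like cell holding 3187 UMIs in vehicle and 4002 in corticosterone. Among cells of 2000 to 3000 UMIs the median share was 4.12% in vehicle and 5.10% in corticosterone, and among cells of at least 10000 UMIs it was 4.63% and 5.15%. Corticosterone had the higher median at every depth, and the gap was widest in the shallowest cells, at 4.26 and 5.57% below 1000 UMIs, where the corticosterone library had 95 cells. With each cell of at least 1000 UMIs thinned to that number, which left out 590 vehicle and 95 corticosterone cells, the medians were 4.3 and 5.2%.

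**Figure D1:**
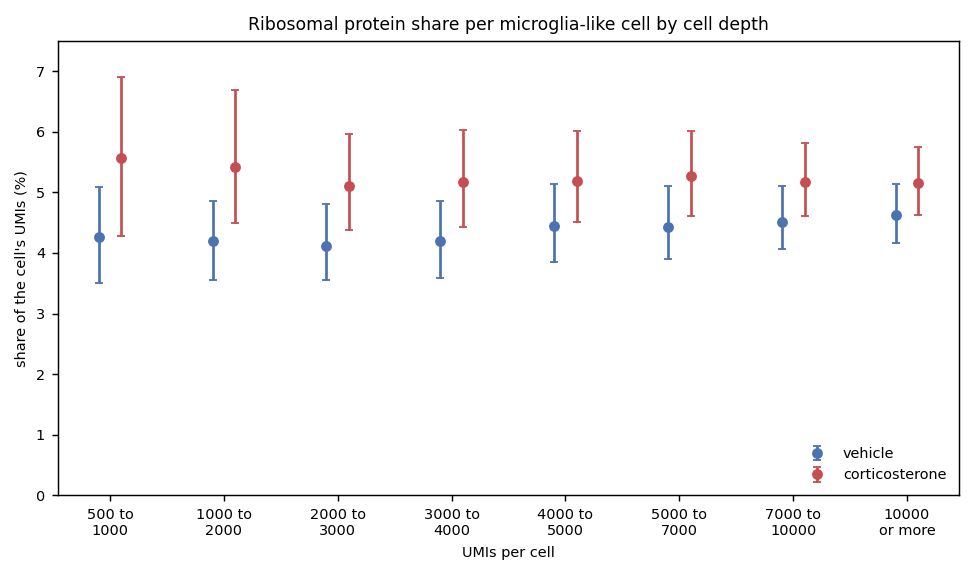
Share of a microglia-like cell's UMIs in ribosomal protein genes (vertical axis, percent) by the UMI count of the cell (horizontal axis), vehicle in blue and corticosterone in red; points are medians over cells and bars run from the 25th to the 75th percentile. The corticosterone median lay above the vehicle median at every depth, with overlapping bars, for example 5.10 against 4.12% at 2000 to 3000 UMIs.

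Of the 80 genes, 77 had a mean level of at least 20 CPM over both libraries, from 118 CPM (Rpl13a) to 1654 CPM (Rplp1), and the other 3 (Rpl39l, Rpl3l and Rpl10l) are described further on. Rplp1, which encodes an acidic protein of the large subunit stalk where translation factors dock, was at 1690 CPM in vehicle against 1619 CPM in corticosterone. Rpl13 was at 1161 and 1540 CPM. In the small subunit, Rps29 led with 1435 CPM in vehicle against 1318 CPM in corticosterone, followed by Rps9 with 1100 and 1137 CPM and Rps23, a protein of the decoding centre, with 1073 and 1143 CPM. Dividing the mean levels by annotated transcript length put Rps29 (3529 CPM per kb), Rplp1 (3315), Rps27 (2619) and Rpl32 (1834) at the top. A UMI stands for a captured molecule whatever its length, so this order favours short transcripts and is not an order of abundance. The plot of levels shows all 77 genes and names those described in the text.

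**Figure D2:**
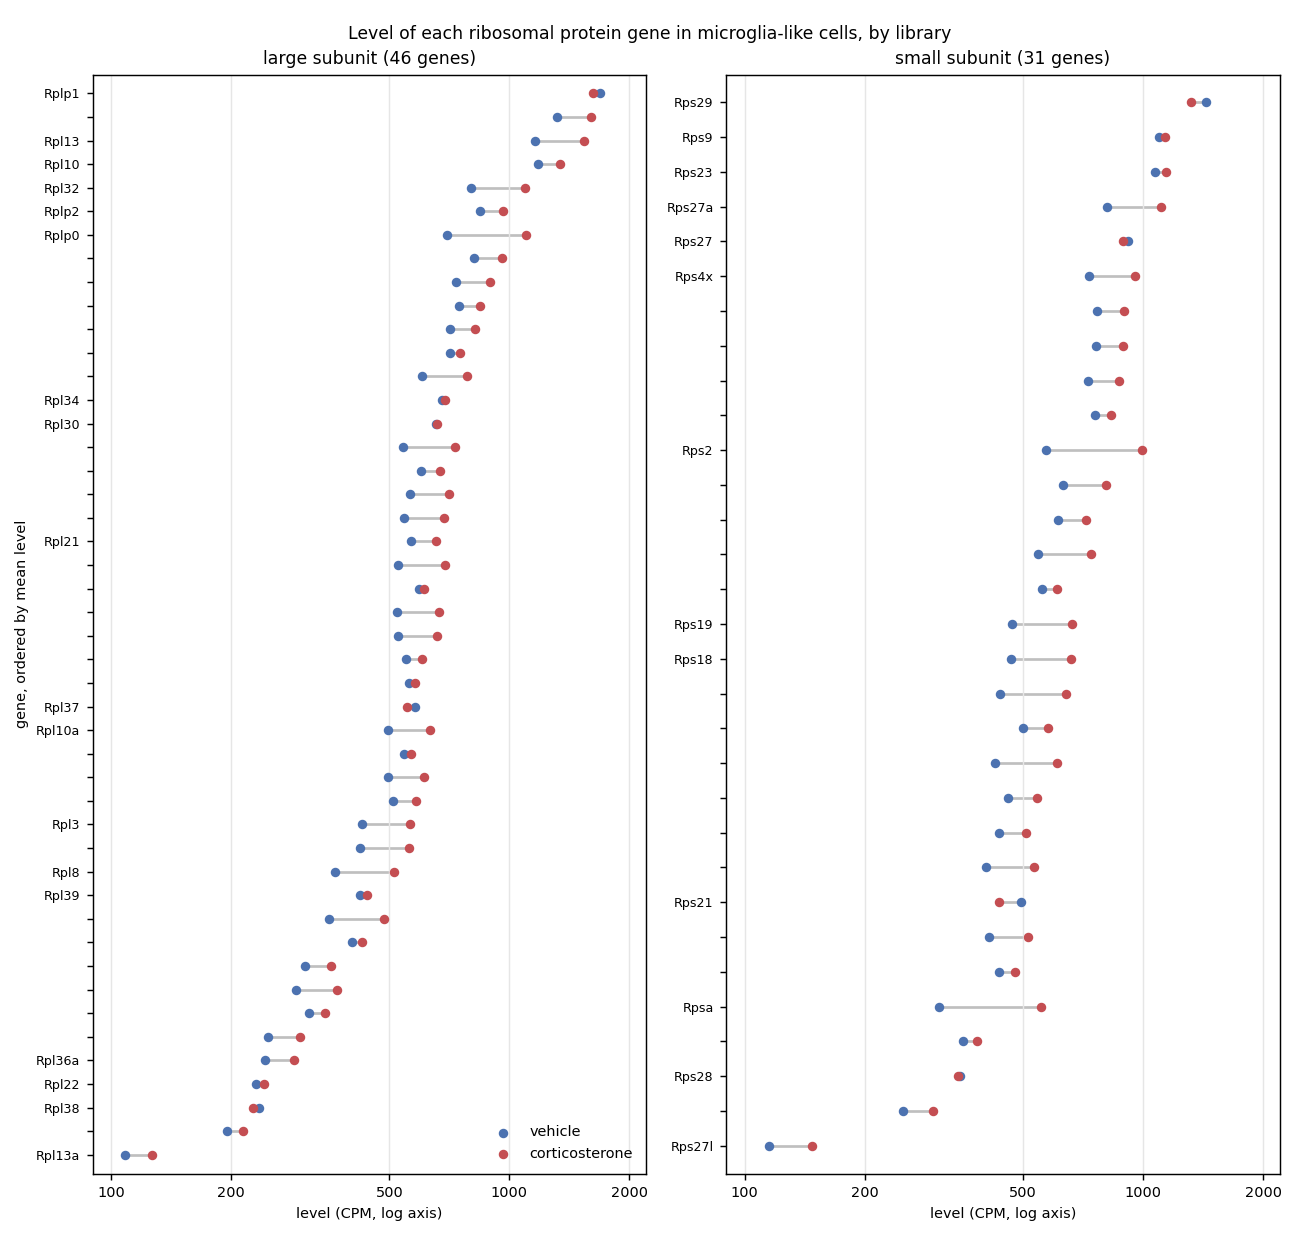
Level of the 77 ribosomal protein genes in microglia-like cells (horizontal log axis, CPM), large subunit left and small subunit right, each gene ordered by its mean level and those described in the text named, with vehicle in blue and corticosterone in red. The red point lies to the right for most genes, and Rplp1, Rps29, Rps21, Rpl37, Rpl38, Rps27 and Rps28 are the exceptions, of which Rps29 and Rps21 alone remain under TMM or DESeq2 scaling.

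Gene by gene, 70 of the 77 had a higher CPM in corticosterone, against 3304 of all 6602 genes at that level (50%). The median log2 ratio was 0.23 (0.20 to 0.30 over the genes), with 0.22 in the large and 0.24 in the small subunit, beside 0.00 over all genes. Differences of at least 0.5 upward were seen for 6 genes, which is 7.79% of the 77 and close to the 6.95% of all genes, so large differences were about as common as elsewhere. No gene was lower by as much, against 6.20% of all genes. At 0.25 the counts were 34 higher, against 20.0% of all genes, and 0 lower, against 18.8%. None was higher by 1, against 1.79%. Among the 1655 genes of at least 100 CPM, the range in which all 77 lay, 54.0% were higher at all, 9.06% by 0.5, 25.5% by 0.25 and 2.24% by 1, while 7.79% were lower by 0.5 and 19.8% by 0.25. The pattern was thus many small differences in 1 direction. In cluster 2 alone 61 of the 77 were higher, against 49.0% of all genes. Counting error alone left the sign undetermined for 3 genes, Rpl30, Rpl34 and Rps28. Scaling by edgeR TMM or DESeq2 size factors moved the median of all genes from 0.00 to 0.09 and 0.11, and the ribosomal protein median to 0.32 and 0.34, which leaves the distance between them at 0.23 by construction.

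The 6 genes with the highest ratio held 5 small subunit genes. Rpsa, on chromosome 9 (chr9:120127689-120132369, GRCm38, plus strand), encodes a small subunit protein that also serves as a laminin receptor precursor at the cell surface. It had 9925 UMIs or 308 CPM in vehicle against 39713 UMIs or 556 CPM in corticosterone, a log2 ratio of 0.85 (0.82 to 0.88). Rps2 (chr17:24718116-24721929), a protein of the mRNA entry region of the small subunit, was at 572 CPM in vehicle against 992 CPM in corticosterone, a log2 ratio of 0.79 (0.77 to 0.82). Rplp0 (chr5:115559467-115563727), the base of the large subunit stalk on which Rplp1 and Rplp2 sit, was at 698 and 1103 CPM, a log2 ratio of 0.66 (0.64 to 0.68). These 3 had the highest ratios of the 77 genes of at least 20 CPM. Rps19, the gene most often mutated in Diamond-Blackfan anaemia, was at 469 and 664 CPM (log2 ratio 0.50), next to Rpl8 and Rps18, which each reached 0.497.

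At the other end were genes with a short coding part. Rps21 (chr2:180257377-180258445) was at 494 CPM in vehicle against 434 CPM in corticosterone, a log2 ratio of -0.18 (-0.21 to -0.16). Rps29 (chr12:69157722-69159186), a zinc-binding protein of the small subunit head, had a log2 ratio of -0.12 (-0.14 to -0.11). Rpl37 was at 580 and 554 CPM (-0.07), Rplp1 had a log2 ratio of -0.06, Rpl38 was at 236 and 227 CPM (-0.05) and Rps27 at 917 and 890 CPM (-0.04). These differences were small, and only Rps21 and Rps29 remained below 0 with TMM or DESeq2 scaling, under which the other 4 turned to values of 0.02 to 0.06. Under either scaling 75 of the 77 genes were higher in corticosterone. These scalings raise every gene by the same amount and put the median of all genes at 0.09 and 0.11. The share of all genes above 0 under them was not counted. The stalk proteins did not move together, with log2 ratios of 0.66 for Rplp0, -0.06 for Rplp1 and 0.20 for Rplp2.

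**Figure D3:**
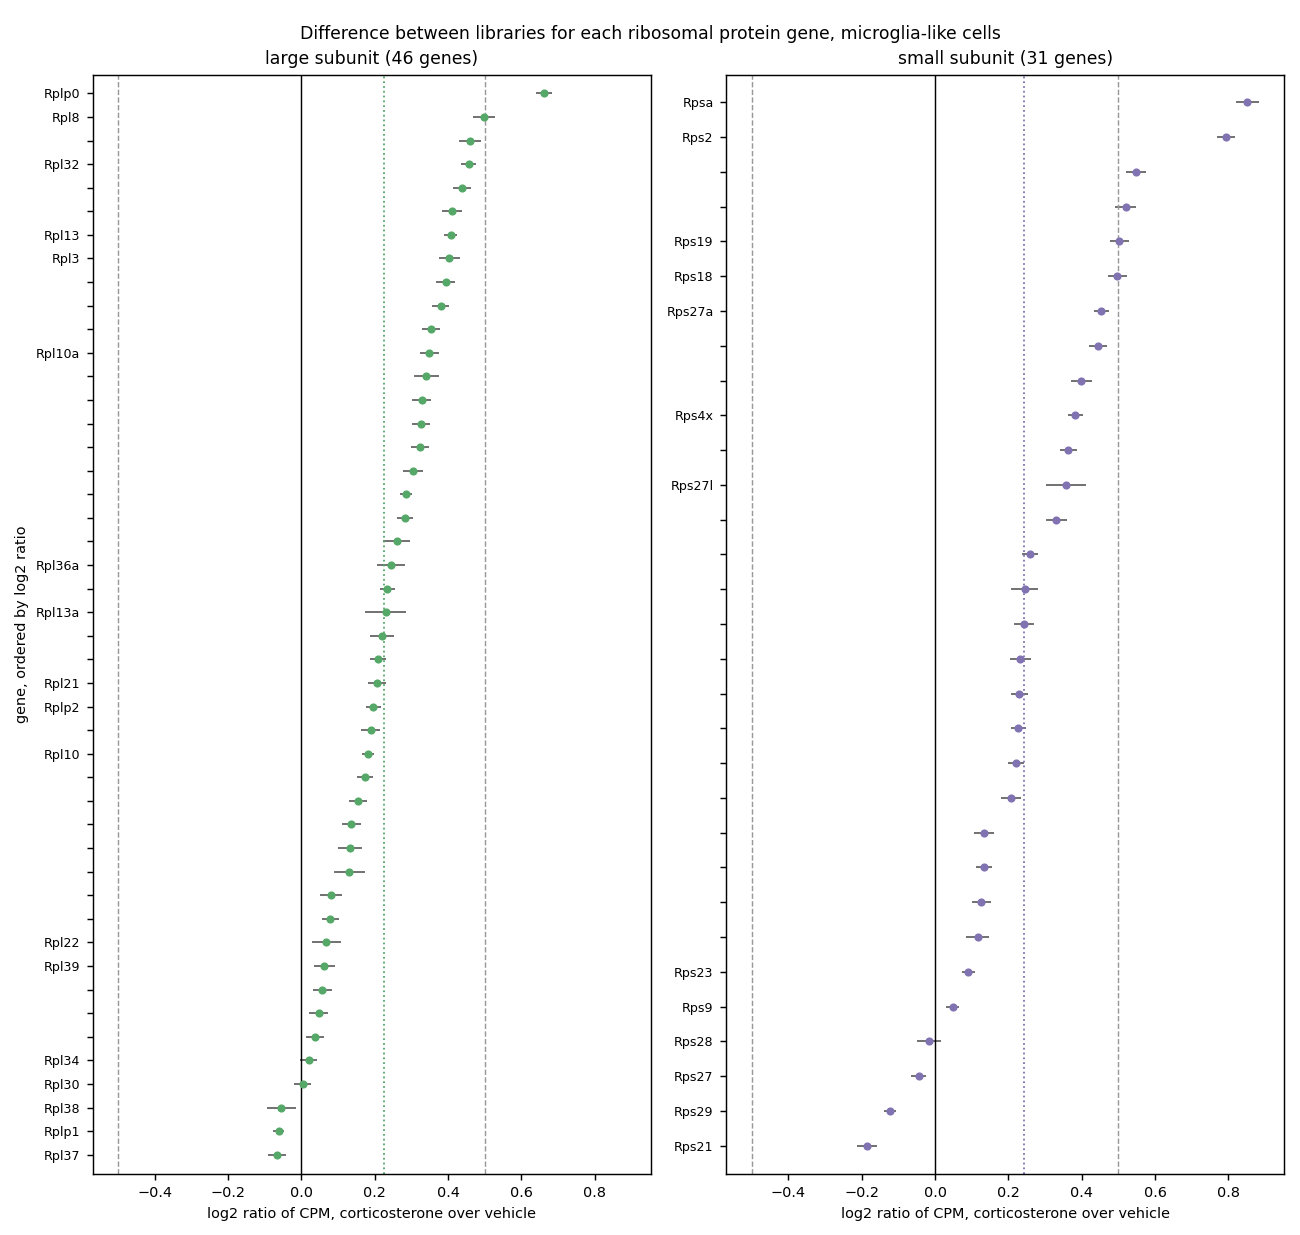
Log2 ratio of CPM, corticosterone over vehicle, for the 77 ribosomal protein genes in microglia-like cells, large subunit left and small subunit right, with 95% intervals from counting error; genes described in the text are named, dashed lines mark 0.5 and -0.5 and the dotted line the subunit's median. Most genes lie between 0 and 0.5 in both panels, with Rpsa, Rps2 and Rplp0 at 0.85, 0.79 and 0.66 and Rps21 at -0.18; of the 7 genes below 0, 5 turn above 0 under TMM or DESeq2 scaling.

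Start regions were compared to see whether these ends differ in the sequence at which transcription begins. Of the 80 genes, 60 had an entry in the RefSeq promoter table (GRCm38.p6). Windows of 30 bases, 10 before and 20 from the annotated start, are given 5' to 3' on the gene's strand for the 8 entries among the 12 genes with the highest and lowest ratios; capitals mark CTTTC, a pyrimidine run of the TOP kind. The windows of Rps2, Rpsa, Rps19 and Rpl38 lie wholly inside the annotated spans of these genes, and that of Rpl37 lies wholly before its gene.
Rpsa (chr9:120127756-120127785, plus strand): ttatttaaggacgtcatttccggccgcccg
Rps2 (chr17:24720053-24720082, plus strand): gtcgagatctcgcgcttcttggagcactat
Rplp0 (chr5:115559457-115559486, plus strand): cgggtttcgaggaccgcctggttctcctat
Rps19 (chr7:24884582-24884611, plus strand): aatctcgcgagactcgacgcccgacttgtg
Rps21 (chr2:180257369-180257398, plus strand): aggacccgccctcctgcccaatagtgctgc
Rpl37 (chr15:5116603-5116632, plus strand): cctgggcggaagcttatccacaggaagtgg
Rpl38 (chr11:114668570-114668599, plus strand): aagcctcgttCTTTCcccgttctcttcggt
Rps27 (chr3:90213629-90213658, minus strand): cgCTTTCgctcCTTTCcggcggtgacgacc

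CTTTC on the gene's strand was found in this window for 23.3% of the 60 genes and for 3.66% of all 27025 promoters of the table, and CTTTC or CTTCC, which may overlap, for 22 of 60 (36.7%) and 9.84%. CCGGAA on either strand, a core read by factors of the ETS family, lay within 250 bases before to 50 after the start for 30 of the 60 genes and 15.2% of all promoters. The 21 expressed genes with CTTTC or CTTCC had a median log2 ratio of 0.23, from -0.05 to 0.50, and the 36 without had a median of 0.23, from -0.18 to 0.85. Having these letters at the annotated start did not separate genes with high from genes with low ratios. A start annotated some bases away from the true one would move the window, so a missing match says only that the letters are not in it.

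Coding length did order the ratios. Using the principal GENCODE transcript of each gene, the 26 shortest coding parts (75 to 399 bases) had a median log2 ratio of 0.07 and included all 7 genes below 0. The 26 of middle length (405 to 564 bases) had a median of 0.23. The 25 longest (576 to 1257 bases) had a median of 0.38, none below 0 and 5 of the 6 genes past 0.5, Rps19 being the other. Over the 77 genes Pearson's r between the log2 ratio and the log2 coding length was 0.64 and Spearman's rho 0.66, with r of 0.69 in the large and 0.68 in the small subunit. These are descriptions across genes of the same 2 libraries, not across samples. Without the 12 genes named for the highest and lowest ratios r was 0.52, with the whole transcript in place of its coding part it was 0.37, and with the GC content of the transcript 0.05.

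Over other genes of at least 20 CPM r was -0.09 (6442 genes), and it was 0.00 over the 865 of at least 100 CPM that were no longer than the longest ribosomal protein gene. It was -0.05 over 72 genes of the mitochondrial ribosome and 0.19 over 52 of the nuclear-encoded respiratory chain. Within the microglia-like clusters the ribosomal protein genes gave r of 0.70 in cluster 0, 0.60 in cluster 1 and 0.71 in cluster 2. In other classes r was 0.53 in border-associated macrophage-like cells, 0.52 in cluster 8, 0.50 in erythroid-like barcodes, 0.42 in neutrophil-like cells and 0.31 in endothelial-like barcodes. In the unnamed low-UMI barcodes it was 0.64, and there r over other genes of at least 20 CPM was 0.26 (6740 genes), unlike the -0.09 in microglia-like cells. Without the 5 genes that have a listed -ps copy r was 0.66.

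**Figure D4:**
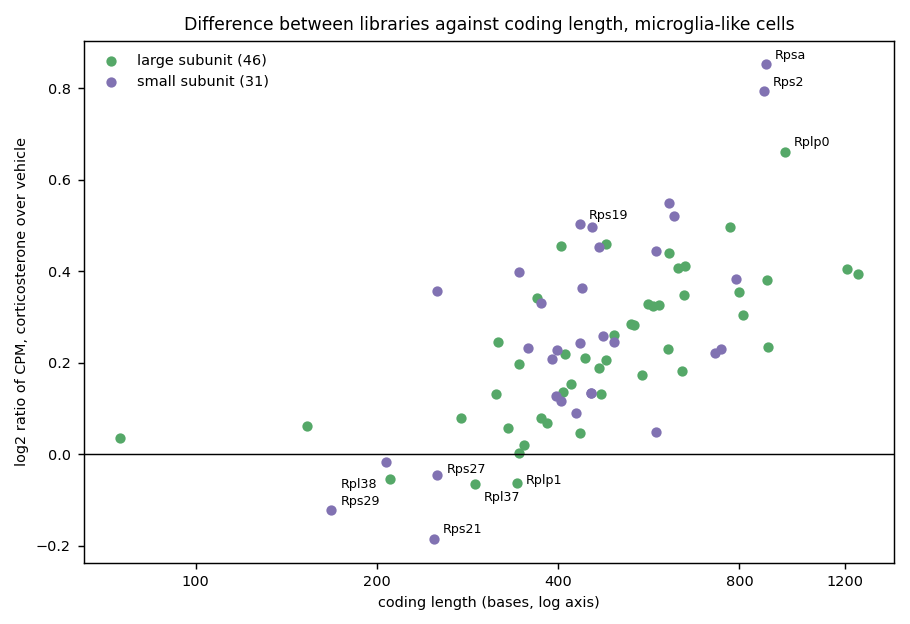
Log2 ratio of CPM, corticosterone over vehicle, in microglia-like cells (vertical axis) against coding length in bases (horizontal log axis) for 77 ribosomal protein genes, large subunit in green and small subunit in violet, with genes described in the text named at both ends. Ratios were higher for longer genes in both subunits (r of 0.69 and 0.68), and the genes below 0 are all among the shortest.

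Some members are copies of another ribosomal protein gene with expression known from particular tissues. Rpl39l, the testis-enriched copy of Rpl39, had 28 UMIs in 7906 vehicle and 365 UMIs in 15267 corticosterone microglia-like cells. The level of 0.869 CPM (0.577 to 1.26) with vehicle compared with 5.11 CPM (4.60 to 5.66) with corticosterone, and the log2 ratio was 2.56 (2.00 to 3.17). A Rpl39l UMI was present in 0.291% of vehicle and 1.82% of corticosterone cells, and among cells of at least 1000 UMIs thinned to that number in 0.0683% and 0.461%. No thinned neutrophil-like cell held one (0 of 357 and 0 of 390). The upper bounds there, 1.03 and 0.94%, lay above the microglia-like values, so these zeros show no difference between the classes. In border-associated macrophage-like cells the gene had 18 and 54 UMIs, a log2 ratio of 2.28 (1.48 to 3.13), and in neutrophil-like cells 1 and 3 UMIs. Rpl39 itself, which was at 421 CPM in vehicle against 440 CPM in corticosterone, had a log2 ratio of 0.06. Rpl39l was thus low in both libraries but differed far more than Rpl39. How reads were divided between near-identical copies is not given in the sources used here, so its level is uncertain.

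Rpl3l, the heart and skeletal muscle copy of Rpl3, had 1 UMI in vehicle and 0 in corticosterone microglia-like cells, and 6 and 12 UMIs in neutrophil-like cells, or 2.64 CPM (0.969 to 5.75) against 5.10 CPM (2.63 to 8.90). Rpl3 was at 427 CPM in vehicle against 565 CPM in corticosterone microglia-like cells (log2 ratio 0.40). Rpl10l, the testis copy that stands in for X-linked Rpl10, had 0 UMIs in every class, where 3 UMIs would be 0.0931 CPM in vehicle against 0.0420 CPM in corticosterone microglia-like cells. Rpl10 was at 1181 CPM in vehicle against 1340 CPM in corticosterone (log2 ratio 0.18). Rps27l, a target of p53, was at 115 CPM in vehicle against 148 CPM in corticosterone, a log2 ratio of 0.36 (0.30 to 0.41), while its partner Rps27 was at -0.04. X-linked Rps4x was at 730 and 952 CPM (log2 ratio 0.38).

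Of the symbols that begin with Rpl or Rps, 23 fell outside the rule: 10 kinases, 7 -ps copies and 6 others. Rps3a1, a regular small subunit protein with a longer name, was at 603 CPM in vehicle against 671 CPM in corticosterone (log2 ratio 0.15). Rpl22l1 and Rpl36al, copies of Rpl22 and Rpl36a, had log2 ratios of 0.07 and 0.39. The -ps copies together held 2260 UMIs in vehicle and 6533 in corticosterone.

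The other cell classes differed in how much of their RNA was ribosomal protein transcripts. Cluster 8 (214 vehicle and 150 corticosterone cells) met the marker rule for monocytes with 5 markers, but its leading genes were those of class II antigen presentation (H2-Eb1, H2-Aa, H2-Ab1, Cd74) beside Ccr2 and Plac8, so it is called by its number. It had the highest share, 6.24% of UMIs in vehicle and 8.02% in corticosterone, a log2 ratio of 0.36 (0.35 to 0.37), at median depths of 3477 and 7763 UMIs per cell. With the ribosomal protein genes allowed to shape the clusters, 1 cluster led by the class II genes held 188 vehicle and 89 corticosterone cells and another, with the monocyte markers, 30 and 59. The libraries thus differed in the mix of such cells, and the part of this in the difference was not tested. Border-associated macrophage-like cells had 5.16% and 5.89% (0.19), and erythroid-like barcodes 3.77% and 4.50% (0.25). In neutrophil-like cells the share was 3.94% in vehicle and 3.84% in corticosterone, a log2 ratio of -0.035 (-0.05 to -0.02), but the direction depends on the scale, since the median log2 ratio over the family was -0.03 and that over all genes of this class -0.11. In the other named classes the family's median lay above that of all genes, with 0.20 and 0.02 in border-associated macrophage-like cells, 0.33 and -0.02 in cluster 8, and 0.27 and 0.08 in erythroid-like barcodes. The median neutrophil-like cell had 3.51% and 2.86%, and without the 6% highest doublet scores the class had 3.84 and 3.39%. In both libraries the order from high to low was cluster 8, border-associated macrophage-like and microglia-like cells, with neutrophil-like and erythroid-like barcodes below. The ratio of large to small subunit UMIs ran from 1.34 to 1.45 over these classes and libraries.

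**Figure D5:**
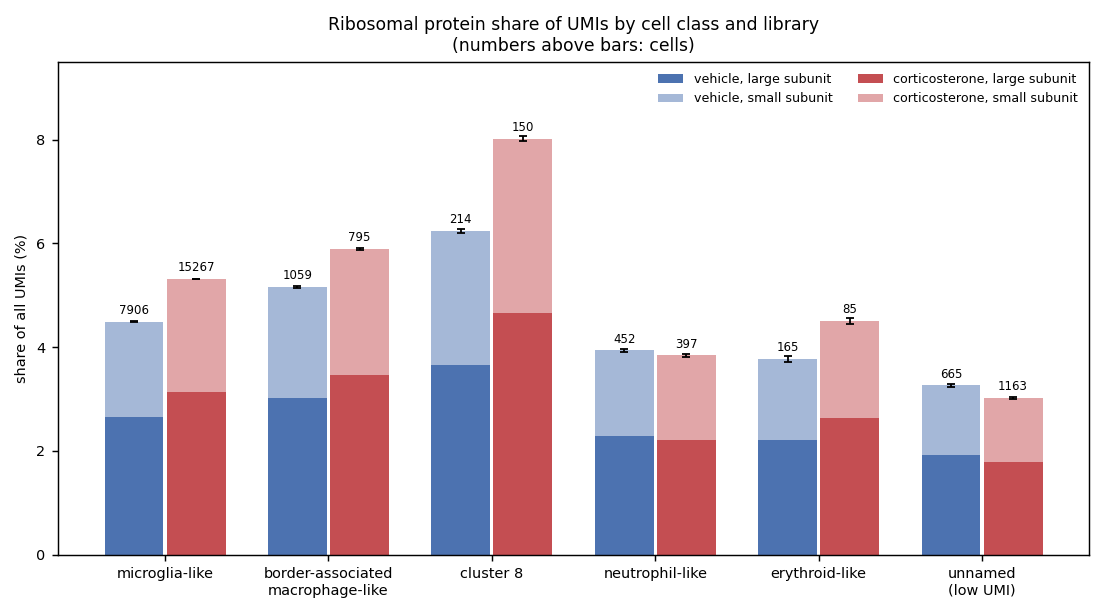
Share of all UMIs in ribosomal protein genes (vertical axis, percent) by cell class and library, vehicle in blue and corticosterone in red, dark for the large and pale for the small subunit, with 95% exact intervals from counting error and cell numbers above the bars. The corticosterone bar is higher in the microglia-like, border-associated macrophage-like and erythroid-like classes and cluster 8, and lower in neutrophil-like cells (3.84 against 3.94%) as well as in the unnamed low-UMI barcodes (3.02 against 3.26%), although in neutrophil-like cells the family's median ratio lay above that of all genes.

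RNA of microglia was present in all of these classes. Relative to microglia-like cells of the same library, the summed level of the 11 microglia markers, vehicle then corticosterone, was 0.87 and 0.69 in border-associated macrophage-like cells, 0.82 and 0.52 in cluster 8, 0.80 and 0.85 in erythroid-like barcodes, and 0.59 and 0.36 in neutrophil-like cells. The part of this RNA in the shares was not tested. The gate for low CD45 sets which blood-derived cells were kept. Most vehicle neutrophil-like cells were in cluster 7 (255, beside 197 in cluster 6) and most corticosterone ones in cluster 6 (269, beside 128). Cluster 6, with the mature-cell receptor Cxcr2 among its leading genes, had a share of 4.45% in vehicle and 4.41% in corticosterone, and cluster 7, led by the granule genes Camp, Ngp and Ltf, had 3.35 and 3.19%, with 34 and 25 of the 77 genes higher against 45.2 and 37.7% of all genes.

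The 12 genes at the ends of the microglia-like order were followed in the other classes. The 6 genes with the highest ratio were higher in corticosterone in border-associated macrophage-like, erythroid-like and neutrophil-like cells and in cluster 8, 6 of 6 in each, with log2 ratios from 0.43 to 0.70 in border-associated macrophage-like and from 0.06 to 0.39 in neutrophil-like cells. Rpsa went from 328 CPM in vehicle to 527 CPM in corticosterone in border-associated macrophage-like cells (0.68), from 413 to 806 CPM in cluster 8 (0.97), and from 282 to 367 CPM in neutrophil-like cells (0.38). The low end was less regular between classes. Of the 6 lowest, 5 were lower in border-associated macrophage-like cells and 6 in neutrophil-like cells, but only 3 in cluster 8, where the other 3 were higher, and 4 in erythroid-like cells. Rps21 was lower in each of these classes, from -0.13 in erythroid-like to -0.45 in neutrophil-like cells, although the interval reached above 0 in erythroid-like cells. In neutrophil-like cells Rplp1 was at 1276 CPM in vehicle against 898 CPM in corticosterone (-0.51), and Rps29 at 1243 and 917 CPM (-0.44). Rps27 had a log2 ratio of -0.03 there, with an interval that reached above 0. In neutrophil-like cells 31 of the 77 genes were higher and 46 lower, a share close to the 40.8% of all genes that were higher. In border-associated macrophage-like cells 69 of 77 were higher (52.5% of all genes), in cluster 8 it was 74 (48.2%), in erythroid-like barcodes 68 (54.9%), and in the 39 and 26 endothelial-like barcodes, too few to describe further, 70 (51.5%). In the unnamed low-UMI barcodes 24 were higher (53.3%).

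The makeup of the ribosomal protein transcripts, each gene as a share of their sum, was close between classes. Against microglia-like cells of the same library, the median absolute log2 difference over the 77 genes was 0.06 in border-associated macrophage-like cells of either library, and 0.09 in vehicle and 0.14 in corticosterone neutrophil-like cells. No gene differed by 0.5 in both libraries. In neutrophil-like cells Rps9 made up 3.33% of ribosomal protein UMIs in vehicle and 3.85% in corticosterone, against 2.45 and 2.14% in microglia-like cells. Rps27a, which encodes ubiquitin fused to a small subunit protein, made up 2.33 and 2.83%, against 1.81 and 2.09%. Rpl10a stood lower, with 0.867 and 0.809% against 1.11 and 1.19%. In border-associated macrophage-like cells Rps29 made up a larger part, 3.75 and 2.86% against 3.19 and 2.48% in microglia-like cells. Rpl21 made up a smaller part, 1.11 and 1.06% against 1.26 and 1.23%, as did Rpl10a with 0.976 and 1.02%.

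Other genes of protein synthesis were compared in microglia-like cells, as log2 ratios of CPM over list members of at least 5 CPM, where 48.2% of all 9677 genes were higher in corticosterone. Rack1, a scaffold on the small subunit, was at 268 CPM in vehicle against 422 CPM in corticosterone (0.65), and Fau was at 1422 and 1574 CPM (0.15). Of 39 ribosome assembly genes 36 were higher, with a median of 0.31. Nop16, a nucleolar protein of large subunit assembly, was at 24.7 and 48.3 CPM (0.97), and Taf1b, a factor of ribosomal RNA transcription, was lowest at 23.1 and 19.7 CPM (-0.23). Of 28 initiation factors 23 were higher (median 0.14), from Eif2s1 at 0.58 to Eif5 at -0.29. Their summed UMIs were nearly level, with 0.622% of all UMIs in vehicle and 0.626% in corticosterone (log2 ratio 0.01). Of 11 elongation factors and their partners 9 were higher (median 0.19), with Eef1e1 at 0.59, while Eef2k, the kinase that slows elongation, was at 120 CPM in vehicle against 67.3 CPM in corticosterone (-0.83).

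Genes that control or watch over the ribosome showed no common direction. Of 22 genes of TOP and mTOR control 12 were higher and 10 lower (median 0.02). Myc, a driver of ribosome production, was at 158 and 246 CPM (0.64), and Pdcd4, an inhibitor of the initiation helicase, at 40.3 and 22.2 CPM (-0.86). Of 13 genes of ribosome quality control 5 were higher and 8 lower (median -0.08, but above 0 under TMM and DESeq2 scaling), with Eif2ak2, the RNA-activated kinase PKR, at 45.1 and 84.1 CPM (0.90) and the stress factor Ddit3 at 76.0 and 46.8 CPM (-0.70). Of 6 genes of the p53 response to free ribosomal proteins 3 were higher (median -0.02, above 0 under both scalings), Trp53 being at 0.29 and the cell cycle inhibitor Cdkn1a at 75.7 and 37.6 CPM (-1.01). Of 10 snoRNA host genes 3 were higher (median -0.06, above 0 under both scalings). Among those of at least 20 CPM the ratios ran from -0.16 (Snhg5) to 0.38 (Snhg6). Both scalings raise every gene by the same amount. Under them the quality control, p53 and snoRNA host medians stayed below the 0.09 and 0.11 of all genes of at least 20 CPM.

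Other large assemblies gave a scale for the family. Of 77 mitochondrial ribosome genes 62 were higher (median 0.14), from Mrps11 at -0.26 to Mrpl28 at 0.76. Of 14 core proteasome genes 13 were higher (median 0.18), Psmb5 at 0.34 being highest and Psma3 at -0.06 lowest. Of 58 nuclear-encoded respiratory chain genes 39 were higher (median 0.09), and among those of at least 20 CPM the ratios ran from -0.15 (Cox7a2l) to 0.57 (Cox16). The median of 0.23 for the cytosolic ribosomal protein genes was thus above these and below the 0.31 of the assembly genes. The intervals over genes of the assembly median, 0.08 to 0.38, and of the proteasome median, 0.13 to 0.24, both held 0.23. Over the alternatives run, the assembly median ranged from 0.16 to 0.42, so its place above the family depends on the processing. None of these distances was tested.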

How the data were processed

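The authors deposited unnormalized UMI counts for each gene in each barcode of the 2 libraries, per the labels and the values, made with GEXSCOPE kits; bcl2fastq 2.19 and GRCm38 come from the submitters' processing notes, and aligner, counter, annotation and multi-mapping rule are not given in the sources used here. The deposited files carry the words wild type and depression, and each was assigned through its sample record. Cells with at least 500 UMIs, 300 genes and at most 20% mitochondrial UMIs were kept (55 of 10555 and 230 of 18113 barcodes removed). Scrublet marked 0 and 2 cells, so no doublets were removed. Clustering used scanpy 1.11.5 (2000 variable genes without the members, 30 components, 15 neighbours, Leiden resolution 0.5 with leidenalg 0.10.2). A cluster was named from 3 or more class markers detected in 10% of its cells with 2 times their level elsewhere. Failing that, it was microglia-like from 3 or more microglia markers averaging 0.5 times or more their level over all cells. A name was refused where the median UMI count was under 33.3% of the library's median and no marker of the class was among the 10 leading genes. It was also refused where the leading genes held 2 or more markers of another class and more of these than of its own. Cluster 4 met the microglia-like rule but stayed unnamed under the rule on low UMI counts. Cluster 8 is called by its number, and endothelial-like barcodes (39 and 26) were not described further. UMIs were summed per class and library and given as CPM. Intervals are exact (Clopper-Pearson for shares, binomial for ratios of sums, Poisson for levels, order statistics for medians). Only those for ratios were tested on simulated data. Named genes were the 6 highest and 6 lowest ratios (some genes this rule names are not reported here), the 3 most abundant of each subunit, paralogs, makeup extremes and each list's extremes. Rpl8, Rps18, Rplp2, Rpl30, Rpl34, Rps28, Rpl32, Rpl13a, Rps3a1, Rpl22l1 and Rpl36al were named after their values were seen. Members, lists and the length comparison were chosen with earlier results of these data known. The list entries Rio1 and Znf598 are not analysed here. Lengths came from GENCODE M21 (APPRIS principal transcript). Alternatives included edgeR 4.0.16 and DESeq2 1.42.0 scaling factors, with no test.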

Additional observations from a re-analysis of the deposited data

Results flagged for a closer look

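The log2 ratio of the ribosomal protein share, corticosterone over vehicle, was -0.035 in neutrophil-like cells and -0.11 in the low-UMI barcodes that carried no class name (665 vehicle and 1163 corticosterone barcodes), against 0.24 in microglia-like cells. They were picked out because their sign was opposite to that of microglia-like cells. The difference between classes was not tested, since each group had 1 library. Neutrophil-like cells kept the lower share in corticosterone in both of their clusters, although in cluster 6 the interval of the log2 ratio, -0.03 to 0.00, reached 0. The opposite sign holds for shares of all UMIs: the family's median log2 ratio lay above that of all genes in the class (-0.03 and -0.11), in cluster 6 (-0.04 and -0.05) and in cluster 7 (-0.07 and -0.18), and below it in the unnamed barcodes (-0.12 and 0.03). The unnamed barcodes met the marker rule for microglia-like cells and were set apart only by the rule on low UMI counts. They had a median of 5.95% mitochondrial UMIs in vehicle and 9.11% in corticosterone, and with the stricter cell filter their direction turned, to 3.47% in vehicle and 3.59% in corticosterone. The part of mitochondrial content in that result was not tested.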

How the results depend on the processing

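The ribosomal protein share and both subunit medians were higher in corticosterone in microglia-like cells under all alternatives run, and the causes of the shifts below were not tested. The log2 ratio of the share was 0.19 over all cells, 0.29 with a rule per cell (749 and 1125 cells), 0.28 in cells of 2000 to 5000 UMIs and with cells weighted equally, 0.26 without mitochondrial and 0.25 without ribosomal protein UMIs in the total, 0.33 with TMM, 0.35 with DESeq2 factors, and 0.15 in cluster 2, the last chosen after seeing the data. The large to small log2 difference was -0.0067 over all cells, -0.0090 without genes that have a -ps copy, -0.054 with the rule per cell and -0.022 at 2000 to 5000 UMIs. The per-cell median difference was 0.806 points over all cells, 0.829 with the rule per cell and 1.0 without mitochondrial UMIs. Ribosomal protein genes higher by 0.5 numbered 12 with the rule per cell, 10 at 2000 to 5000 UMIs and 11 with equal weights. They numbered 14 with TMM and 18 with DESeq2 factors, which raise every gene by the same amount. The share of all genes past 0.5 was not counted in these settings. At folds of 0.25 and 1 there were 34 and 0 ribosomal protein genes, against 20.0 and 1.79% of all genes. The large subunit median was 0.33 with DESeq2 factors. Rpl37, Rplp1, Rpl38 and Rps27 turned to 0.024, 0.028, 0.036 and 0.046 with TMM and to 0.042, 0.046, 0.054 and 0.064 with DESeq2 factors. With TMM and DESeq2 factors the list medians were 0.40 and 0.42 for ribosome assembly and 0.23 and 0.25 for the mitochondrial ribosome. They were 0.27 and 0.29 for the proteasome, and 0.18 and 0.20 for the respiratory chain. Initiation factors were at 0.25 with DESeq2 factors, and snoRNA hosts at 0.18 with the rule per cell. The lowest ribosome assembly median among the alternatives was 0.16, under the lowest large and small subunit medians of 0.19 and 0.21. The correlation with coding length was 0.37 with transcript length and 0.52 without the 12 extreme genes, both chosen after seeing the data.

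Shares by class, vehicle then corticosterone where both moved, were as follows. With the stricter filter they were 5.31% in corticosterone microglia-like cells, 4.32 and 4.65% in erythroid-like and 3.47 and 3.59% in unnamed barcodes. Without the 6% highest doublet scores they were 4.50 and 5.33% (microglia-like), 5.18 and 5.92% (border-associated macrophage-like), 3.84 and 3.39% (neutrophil-like), 3.12 and 2.10% (unnamed), and 3.69% in vehicle erythroid-like barcodes. At Leiden resolution 0.3 vehicle shares were 6.28% (the cluster with the monocyte name) and 3.23% (unnamed). With the members allowed among the variable genes they were 5.27 and 6.10% (border-associated macrophage-like) and 8.48% in the corticosterone cells of the cluster with the monocyte name. In that clustering the border-associated macrophage-like class also took in the cluster led by the class II genes (188 vehicle and 89 corticosterone cells). Neutrophil-like clusters taken alone, chosen after seeing the data, gave 4.45 and 4.41% (cluster 6) and 3.35 and 3.19% (cluster 7).

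No paired analysis was possible because each group had 1 library. Depth limits the low copies: levels of Rpl39l rest on 28 vehicle UMIs, and those of Rpl3l and Rpl10l on at most 1 in microglia-like cells. Intervals cover counting error only, except that of the median over genes, which covers the spread over genes.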
